A study of Mus musculus with 22 samples.

Results

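Small leucine-rich proteoglycans are a family of 10 genes here: Epyc, Bgn, Dcn, Fmod, Lum, Prelp, Kera, Ogn, Aspn and Omd. Members were found on the array by gene name, older symbol (such as Dspg3 for Epyc) or RefSeq accession, which gave 14 probes. They are 10 of the 27633 genes and unnamed probes on the array. Of these, 9 members were among the 18641 genes and unnamed probes that could be tested. Omd was not, because its probe was too dim. The samples are forelimbs of mouse embryos of strain 129 at 13.5 days, from 13 Chsy-1 knockout samples and 9 wild-type samples. Forelimb RNA carried the dye Cy5 and shared a two-colour Agilent oligonucleotide array with a universal mouse reference RNA that carried Cy3. Chsy1 encodes chondroitin sulfate synthase 1, which lengthens chondroitin sulfate chains. By the design text these are biological replicates. The labels do not say which part of the gene was deleted or whether a sample is 1 embryo or a pool, and a p-value covers just the spread among the samples at hand.

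Small leucine-rich proteoglycans are secreted matrix proteins built from leucine-rich repeats, many of which carry chondroitin, dermatan or keratan sulfate chains. Several bind collagen fibrils and set fibril thickness and spacing, and some bind growth factors such as TGF-beta. In the developing limb, epiphycan, the product of Epyc, is known as a proteoglycan of growth plate cartilage, while decorin, lumican and osteoglycin are made by connective tissue, tendon and skin.

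Values below are log2 ratios of forelimb to reference RNA unless another scale is named, and differences are knockout minus wild type. A ratio says how a gene stands against the reference at 1 probe, so the members are not ranked against each other by level. In a whole forelimb, fewer cells of a type and less RNA per cell cannot be told apart. A gene was called if its adjusted p was under 0.05 over all tested genes in limma's test. That rule called 4 of 18641 genes, or 0.0215%, all of them lower in knockout forelimbs. At an unadjusted p under 0.05, 5.33% of all tested genes passed, 3.95% lower and 1.38% higher. The median difference over all tested genes was -0.0072.

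An array had 27214 to 30599 spots with Cy5 well above background, out of 43379 that were not controls, which is what passing background means here, and correlations between arrays across genes lay between 0.886 and 0.993. Chsy1 had -4.38 ± 1.39 in knockout and 1.73 ± 0.28 in wild-type forelimbs (SD, n = 13 and 9), with adjusted p = 1.29e-08 in limma. The array labelled knockout 1 stood apart at 0.15, while the other 12 knockout arrays lay between -5.12 and -4.05 and the wild-type arrays between 1.28 and 2.02. The array wild type 1 had the lowest wild-type ratio for Epyc, Lum and Kera and the highest for Bgn and Omd. It was the lowest wild-type array in every marker list but the hypertrophic and bone list and the macrophage list. Its Cy5 signal was the lowest among wild-type arrays for Lum but not for Epyc or Kera. Values without wild type 1 are given beside the members and lists which that array moves most. Among knockout arrays, knockout 12 was the lowest for 6 of 10 marker lists. All 6 slides held both genotypes. Position on the slide was less balanced, with 6 wild-type arrays at position 1, 3 knockout and 3 wild-type arrays at position 2, and 6 and 4 knockout arrays at positions 3 and 4. As a check of the tissue, Tbx5, which marks forelimb, averaged 2.41 ± 0.25 in knockout and 2.20 ± 0.56 in wild-type forelimbs. Pitx1, known from hindlimb, was also above the reference, at 5.45 ± 0.15 in knockout and 5.64 ± 0.27 in wild-type forelimbs. By themselves these ratios to a reference do not tell forelimb from hindlimb. All 15 cartilage markers were tested on these arrays.

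No member was called, that is 0 of 9. Epyc was the only member with an unadjusted p under 0.05 in the fit without covariates; with the slide as a block, Ogn (0.0117) and Aspn (0.0442) were under it too, and with position as a block Epyc was not (0.0702). The 9 differences ran from -0.83 for Epyc to 0.10 for Kera, with 6 below and 3 above 0 and a median of -0.19. Over all tested genes 53.4% of differences were below 0. The split of the 9 depends on the scaling: with each array centred on its median in place of loess, 2 were below and 7 above 0 with a median of 0.10, while the median of all genes moved to 0.24.

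**Figure D1:**
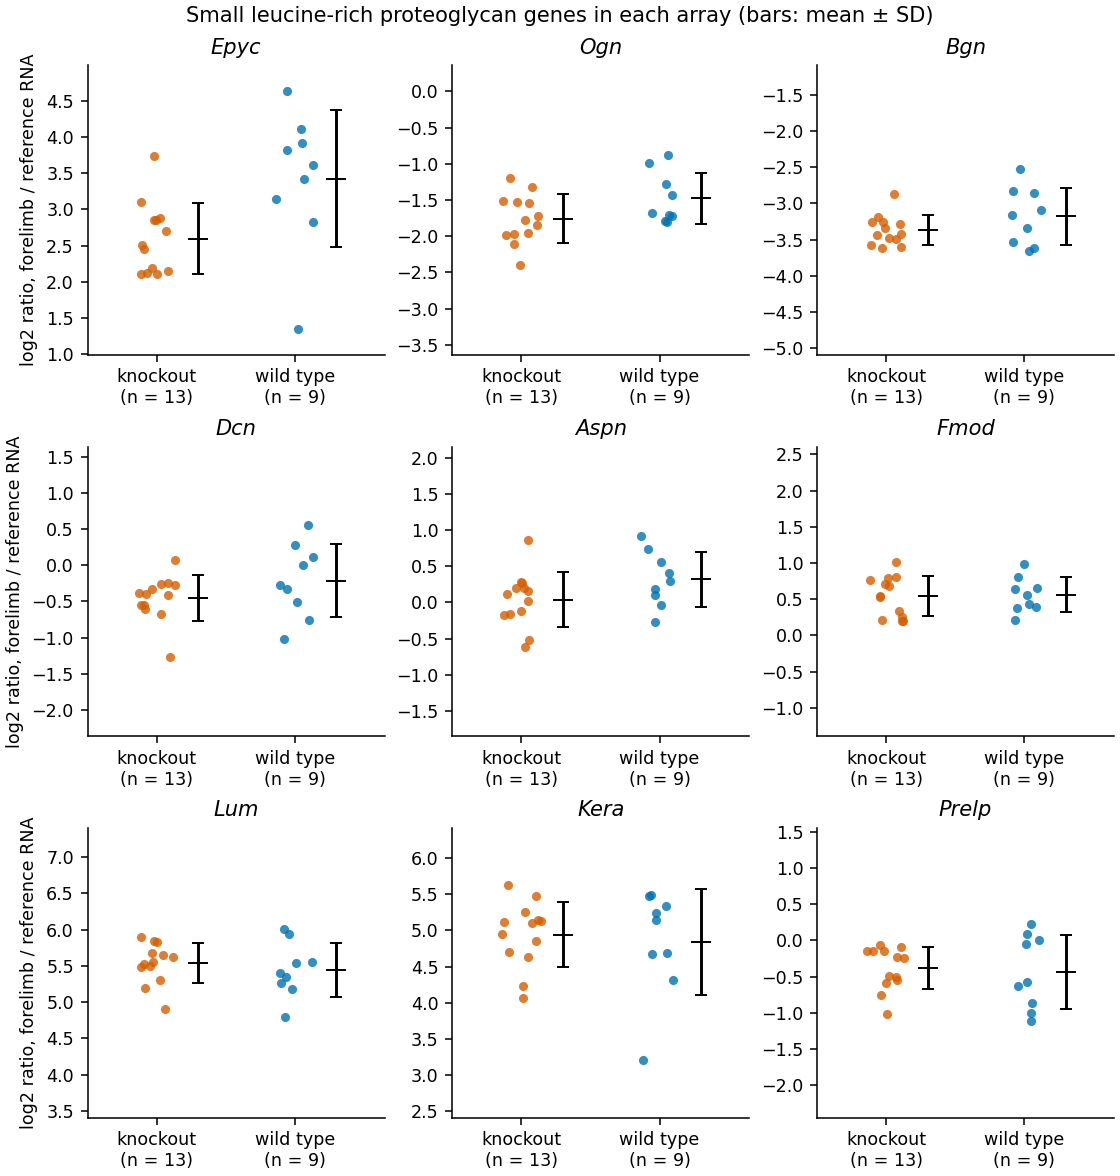
Log2 ratio of forelimb to reference RNA for the 9 tested members, 1 point an array, with knockout (n = 13) left of wild type (n = 9) and bars for mean ± SD; each vertical axis spans the same length. Epyc has the widest spread, and 12 of 13 knockout arrays are under its wild-type median of 3.62.

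Epyc encodes epiphycan, a dermatan sulfate proteoglycan of cartilage and a class III member of the family. Its probe lies at chr10:97110899-97110958 on the mm8 coordinates of the files, for which no exon annotation was used. The lowest, median and highest ratios were 2.10, 2.51 and 3.74 in knockout forelimbs, against 1.35, 3.62 and 4.63 in wild-type forelimbs. The groups overlapped: the lowest value of all belonged to wild type 1, 12 of 13 knockout arrays were under the wild-type median, and 4 of 9 wild-type arrays lay above the highest knockout array. Epyc averaged 2.60 ± 0.49 in knockout and 3.42 ± 0.94 in wild-type forelimbs (SD, n = 13 and 9). The difference was -0.83 (SE 0.28, 95% interval -1.41 to -0.24), which is 1.78-fold lower, with unadjusted p = 0.00744 and adjusted p = 0.908 in limma. By its p-value Epyc ranked 143 of 18641. Its residual SD of 0.71 was higher than that of 99.5% of tested genes, whose median was 0.19. Cy3 reference signal for Epyc was well above background on 3 of 22 arrays, so the size of its ratio rests on a dim reference. The Cy5 signal itself had a lowest, median and highest value of 585, 948 and 1564 units in knockout and 920, 1672 and 3225 units in wild-type forelimbs.

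A second Epyc probe, at chr10:97111019-97111078, averaged 1.39 ± 0.40 in knockout and 2.09 ± 0.77 in wild-type forelimbs. Its difference was -0.70 (SE 0.23), with unadjusted p = 0.00616 and adjusted p = 0.964 over all tested probes in limma. Both probes followed each other across the 22 arrays with Pearson's r = 0.986. Without wild type 1 the Epyc difference was -1.09 (SE 0.21, 95% interval -1.53 to -0.64), its rank by p was 5, and its adjusted p in limma was 0.147. In that set 8 of 13 knockout arrays lay below the lowest wild-type array. Without knockout 1 the difference was -0.87. Within slides the knockout mean was lower on 5 of 6, with differences from -1.83 to 0.11; the slide with the highest difference held wild type 1. Within position 2, with 3 arrays a group, the difference was -1.07. With position as a block the estimate is the same by construction, since position 2 alone held both genotypes, and unadjusted p was 0.0702 in limma. With the scanner's own log ratio it was -1.26, and within position 2 without knockout 1 it was -1.39. With the slide as a block it was -0.95, and with array weights -1.05 at adjusted p = 0.0887 in limma. The difference of Epyc was below 0 and not called in all 44 alternatives, with adjusted p in limma from 0.0837 upwards. Not all of these are separate, since the value table holds the scanner log ratios and the position block gives the position 2 difference.

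Ogn encodes osteoglycin (mimecan), also of class III, a keratan sulfate proteoglycan of bone and connective tissue. The lowest, median and highest ratios were -2.40, -1.78 and -1.19 in knockout, against -1.80, -1.68 and -0.88 in wild-type forelimbs. The groups overlapped, with 6 of 13 knockout arrays below the lowest wild-type array. Ogn averaged -1.76 ± 0.33 in knockout and -1.48 ± 0.35 in wild-type forelimbs. The difference was -0.28 (95% interval -0.57 to 0.0055), with unadjusted p = 0.0542 and adjusted p = 0.919 in limma. With the slide as a block it was -0.36 (95% interval -0.62 to -0.089), and the knockout mean was lower on 5 of 6 slides. Median centring turned it to 0.056, below the median of all genes under that scaling.

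Starts of Epyc, Ogn and Aspn, the 3 members with the largest differences, are shown next, as the 250 bases before the annotated start in the RefSeq table for GRCm38.p6, on the plus strand. Capitals mark matches, on either strand, to TATAAA (the core of the TATA box), ACAAT or ACAAAG (cores bound by Sox factors) and TGTGGT (a core bound by Runx factors). Epyc has 2 annotated starts in that table, the second of which lies inside the gene. The first is at chr10:97643818-97644067, the second at chr10:97646853-97647102, Ogn at chr13:49607765-49608014 and Aspn at chr13:49544193-49544442.
Epyc start 1: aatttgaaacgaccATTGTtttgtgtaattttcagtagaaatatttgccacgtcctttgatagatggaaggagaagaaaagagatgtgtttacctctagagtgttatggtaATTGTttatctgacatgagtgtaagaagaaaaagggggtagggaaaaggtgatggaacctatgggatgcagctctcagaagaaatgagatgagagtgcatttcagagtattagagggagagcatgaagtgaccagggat
Epyc start 2: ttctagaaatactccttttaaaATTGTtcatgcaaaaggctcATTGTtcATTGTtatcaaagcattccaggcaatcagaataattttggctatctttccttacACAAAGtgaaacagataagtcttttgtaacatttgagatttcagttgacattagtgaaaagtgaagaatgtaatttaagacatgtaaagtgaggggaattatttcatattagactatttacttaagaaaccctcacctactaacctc
Ogn: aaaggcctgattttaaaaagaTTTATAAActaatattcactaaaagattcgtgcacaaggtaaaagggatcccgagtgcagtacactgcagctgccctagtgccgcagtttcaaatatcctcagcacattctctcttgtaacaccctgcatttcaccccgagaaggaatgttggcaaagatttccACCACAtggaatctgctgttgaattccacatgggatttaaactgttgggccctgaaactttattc
Aspn: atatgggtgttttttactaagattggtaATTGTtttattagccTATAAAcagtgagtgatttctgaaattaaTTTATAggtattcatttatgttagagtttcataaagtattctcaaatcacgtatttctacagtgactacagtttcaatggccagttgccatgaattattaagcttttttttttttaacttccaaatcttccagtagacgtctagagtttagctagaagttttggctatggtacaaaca
The first Epyc start held 2 matches to ACAAT, and the second held 3 to ACAAT and 1 to ACAAAG. Ogn held 1 match to TGTGGT and 2 to TATAAA, which overlap on opposite strands. Aspn held 2 matches to TATAAA and 1 to ACAAT. The TATAAA match nearest the start began 227 bases before it for Ogn and 178 bases before it for Aspn. Of 9 starts of the 8 members in the table, 6 held ACAAT, 2 held ACAAAG, 2 held TATAAA and 1 held TGTGGT. Over all 32851 starts in the table, 27.7% held ACAAT, 16.5% ACAAAG, 12.4% TATAAA and 14% TGTGGT. Starts of Dcn and Lum were not analysed here. A match describes letters and is no measure of binding.

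The class I members are Bgn, Dcn and Aspn. Biglycan and decorin carry chondroitin or dermatan sulfate chains, and asporin carries a stretch of aspartate in place of chains and binds collagen and TGF-beta. Aspn had a lowest, median and highest ratio of -0.61, 0.12 and 0.86 in knockout, against -0.27, 0.29 and 0.91 in wild-type forelimbs. The groups overlapped, although 12 of 13 knockout arrays were under the wild-type median. Aspn averaged 0.04 ± 0.38 in knockout and 0.32 ± 0.38 in wild-type forelimbs. The difference was -0.28 (95% interval -0.60 to 0.035), with unadjusted p = 0.0789 and adjusted p = 0.919 in limma. It was lower in knockout on 5 of 6 slides and within position 2, where it was -0.33.

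Dcn, which encodes decorin, had a lowest, median and highest ratio of -1.27, -0.40 and 0.08 in knockout, against -1.03, -0.27 and 0.55 in wild-type forelimbs. The lowest of all was the array labelled knockout 1. Dcn averaged -0.45 ± 0.31 in knockout and -0.21 ± 0.51 in wild-type forelimbs, a difference of -0.24 (95% interval -0.58 to 0.097) with adjusted p = 0.932 in limma. Without knockout 1 the difference was -0.17. Slides divided evenly, with 3 lower and 3 higher in knockout and a range of -0.98 to 0.16. A second probe named Dcn by its symbol, at chr10:96910401-96910460, lies away from the first at chr10:96947287-96947346. It passed background on 9 of 13 knockout and 5 of 9 wild-type arrays, and its difference had the opposite sign, 0.18 (95% interval -0.015 to 0.37).

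Bgn, which encodes biglycan and is the only member on chromosome X, had a lowest, median and highest ratio of -3.62, -3.43 and -2.87 in knockout, against -3.66, -3.16 and -2.53 in wild-type forelimbs. The highest was wild type 1, and 12 of 13 knockout arrays were under the wild-type median. Bgn averaged -3.37 ± 0.20 in knockout and -3.18 ± 0.39 in wild-type forelimbs, a difference of -0.19 (95% interval -0.44 to 0.060) with adjusted p = 0.925 in limma. Without wild type 1 the difference was -0.11. A second Bgn probe was well above background on 2 knockout and 1 wild-type arrays and was not tested.

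The class II members are Fmod, Lum, Kera, Prelp and Omd, most of which can carry keratan sulfate or sulfated tyrosines. Lum encodes lumican, which spaces collagen fibrils in skin, tendon and cornea. Its ratios ran from 4.91 to 5.90 in knockout with a median of 5.56, against 4.80 to 6.01 in wild-type forelimbs with a median of 5.41. The groups overlapped along nearly their whole length. Lum averaged 5.54 ± 0.28 in knockout and 5.45 ± 0.37 in wild-type forelimbs, a difference of 0.09 (95% interval -0.18 to 0.36), which was 0.01 without wild type 1. These means stand 46.5-fold above the reference in knockout and 43.7-fold above it in wild-type forelimbs.

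Kera encodes keratocan, a keratan sulfate proteoglycan best known from cornea. Its ratios ran from 4.06 to 5.62 in knockout with a median of 5.10, against 3.20 to 5.49 in wild-type forelimbs with a median of 5.14. The array wild type 1 was the lowest of all 22. Kera averaged 4.94 ± 0.45 in knockout and 4.84 ± 0.73 in wild-type forelimbs, a difference of 0.10 (95% interval -0.38 to 0.58) that became -0.10 without wild type 1. Its residual SD of 0.58 was higher than that of 99% of tested genes, so the interval is wide.

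Fmod, which encodes fibromodulin, an assembly factor of collagen fibrils in tendon and cartilage, averaged 0.54 ± 0.28 in knockout and 0.56 ± 0.24 in wild-type forelimbs. Its difference was -0.02 (95% interval -0.25 to 0.20). Prelp, which encodes a heparin-binding member that links basement membranes to collagen, averaged -0.38 ± 0.29 in knockout and -0.44 ± 0.51 in wild-type forelimbs. Its difference was 0.06 (95% interval -0.28 to 0.39), or 0.0023 without wild type 1. A second Prelp probe was well above background on 6 knockout and 2 wild-type arrays and was not tested. Adjusted p in limma was 0.990 for Fmod and 0.983 for Prelp.

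Omd encodes osteomodulin (osteoadherin), a keratan sulfate proteoglycan of mineralising bone. Cy5 signal for Omd passed background on 0 of 13 knockout and 2 of 9 wild-type arrays, while the reference was above background on all 22. Omd was thus not well above background on any knockout array or on most wild-type arrays, and no difference was tested. The measured ratios averaged -1.40 ± 0.23 in knockout and -1.15 ± 0.35 in wild-type forelimbs, with wild type 1 the highest at -0.27.

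**Figure D2:**
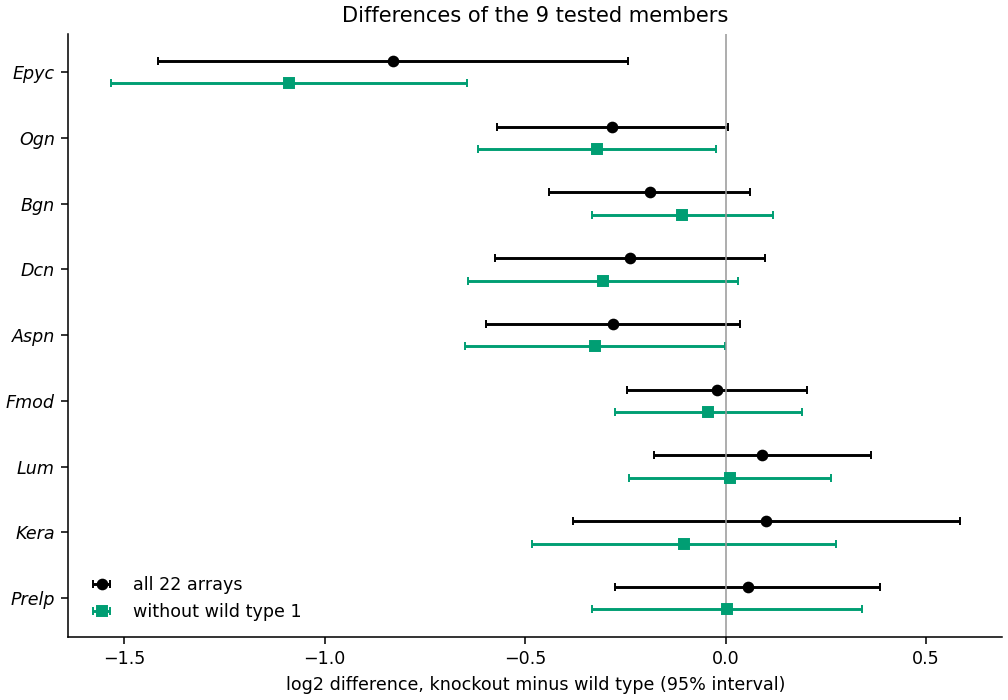
Difference of each tested member on the log2 scale, knockout minus wild type, with 95% intervals from limma; black circles use all 22 arrays and green squares leave out wild type 1. The Epyc interval lies below 0 in both sets, and the Kera difference is 0.10 with all arrays and -0.10 without wild type 1.

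The 10 genes sit in 3 clusters and at 1 lone place in GRCm38.p6. Dcn, Lum, Kera and Epyc follow each other on chromosome 10, Aspn, Omd and Ogn lie beside Ecm2 on chromosome 13, and Prelp and Fmod lie beside Optc on chromosome 1. No protein-coding gene lies wholly inside a gap between these neighbours, and the gap between Kera and Epyc is 30379 bases. Genes that overlap or span a gap were not counted. On chromosome 10 the differences were -0.24 for Dcn, 0.09 for Lum, 0.10 for Kera and -0.83 for Epyc. On chromosome 13 they were -0.28 for both Aspn and Ogn, and on chromosome 1 they were 0.06 for Prelp and -0.02 for Fmod. Without wild type 1 the chromosome 10 differences were -0.31 for Dcn, 0.01 for Lum, -0.10 for Kera and -1.09 for Epyc, so the values above 0 there rest mostly on that array.

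The members were also compared by their correlation across the 22 arrays. These correlations are descriptions over arrays that share the 1 reference RNA and, in part, a slide. Pearson's r was 0.89 for Ogn and Aspn, 0.85 for Dcn and Aspn and 0.83 for Lum and Kera. The array knockout 5 was the lowest knockout array for Epyc, Ogn, Aspn, Lum and Prelp, and knockout 6 was the highest for Epyc, Aspn, Dcn and Lum. After removing the group means the 3 correlations were 0.87, 0.83 and 0.83. The 21 pairs without Bgn and Fmod had r from 0.44 to 0.89 with a median of 0.64, while Fmod had r from 0.14 to 0.48 with the 7 members other than Bgn. The 8 pairs with Bgn had r from -0.54 to 0.16 with a median of -0.18. Without wild type 1, where Bgn was highest, those 8 had r from -0.27 to 0.29 with a median of 0.05, so the values below 0 rest largely on that array. The 8 pairs on 1 chromosome had a median r of 0.62, and the 28 pairs on different chromosomes had a median of 0.45. Those 28 include all 8 pairs with Bgn, which lower that median, so the medians do not show an effect of sharing a chromosome.

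**Figure D3:**
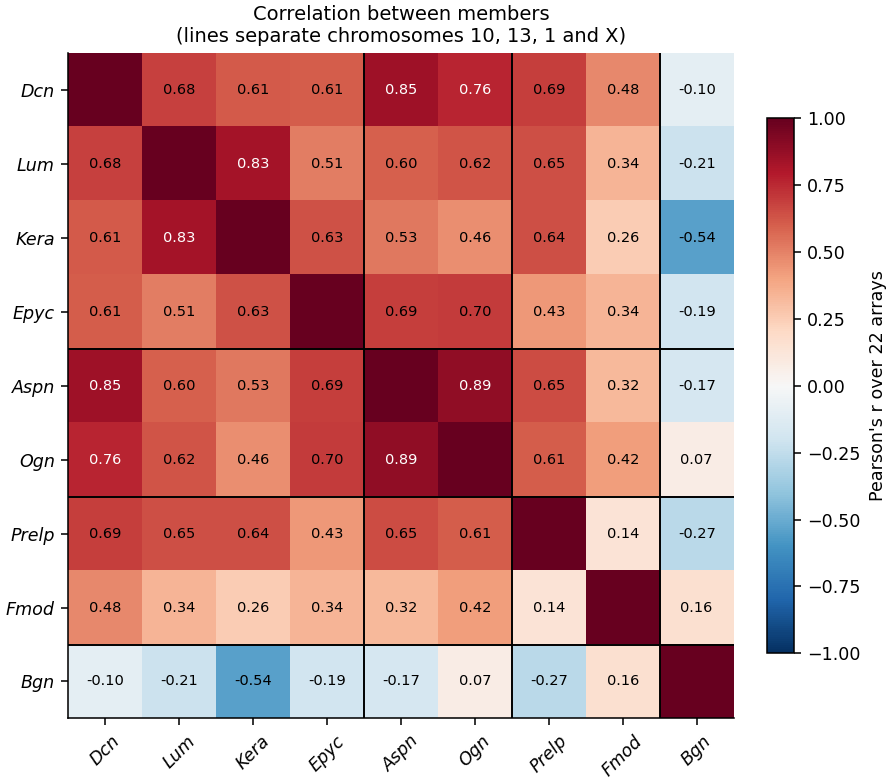
Pearson's r over 22 arrays for each pair of the 9 tested members, ordered by chromosome, with the colour scale running from -1 (blue) to 1 (red). Ogn and Aspn have the highest value at 0.89, and Bgn has values between -0.54 and 0.16 with the others, which became -0.27 to 0.29 without wild type 1.

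Among 16177 other named genes, those most like Epyc by Pearson's r over the 22 arrays were Hapln1 (0.92), Matn3 (0.91), Matn1 (0.90), Nxpe2 (0.88) and Cnmd (0.88). Hapln1 encodes the link protein of the aggrecan matrix, Matn1 and Matn3 encode matrilins of cartilage, and Cnmd encodes chondromodulin. Their differences were -0.38, -0.40, -0.42, -0.11 and -0.24 in the order Hapln1, Matn3, Matn1, Nxpe2 and Cnmd, and none was called. The mean of the 15 cartilage markers followed Epyc with r = 0.85 and Kera with r = 0.81, and Bgn with r = -0.34. Single markers differed in their r with Epyc. It was -0.15 for Sox9, -0.05 for Sox5, 0.27 for Sox6 and 0.41 for Col2a1. The other markers ran from 0.55 for Col9a2 to 0.92 for Hapln1. Epyc followed other list means closely too, with r = 0.83 for hypertrophic and bone markers, 0.79 for tendon, 0.76 for chondroitin and dermatan chain enzymes and 0.75 for muscle. The correlations here and with list means below include wild type 1 and were not repeated without it. That array was the lowest of all for Epyc, Kera and the cartilage mean and the highest for Bgn. That mean of cartilage markers had a range of 2.44 to 3.37 in knockout and 2.01 to 3.57 in wild-type forelimbs, where wild type 1 was the lowest.

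Epyc was also set against the cartilage markers, the tissue it is known from. The mean of the 15 markers was 3.01 ± 0.22 in knockout and 3.16 ± 0.48 in wild-type forelimbs, a difference of -0.16 with all arrays and -0.30 without wild type 1. Epyc minus that mean was -0.41 ± 0.37 in knockout and 0.26 ± 0.51 in wild-type forelimbs (SD, n = 13 and 9). In knockout, 13 of 13 arrays were under the wild-type median, and 4 lay below the lowest wild-type array. The difference was -0.67, with p = 0.00272 in a two-sided exact permutation test over the 22 arrays. That is a single unadjusted value for a comparison chosen after the Epyc values were seen. The knockout mean was lower on 6 of 6 slides, with differences from -1.19 to -0.017. Without wild type 1 the difference was -0.79, with exact permutation p = 0.000433. With the 6 arrays of position 2 it was -0.79, with exact permutation p = 0.1, the smallest that 3 against 3 allows. Epyc spread more than the marker mean, with a wild-type SD of 0.94 against 0.48. Subtracting the mean can therefore leave part of a shared change in place. The permutation test covers just that subtracted value. Whether Epyc changed beyond a change that it shares with the cartilage markers was not tested.

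**Figure D4:**
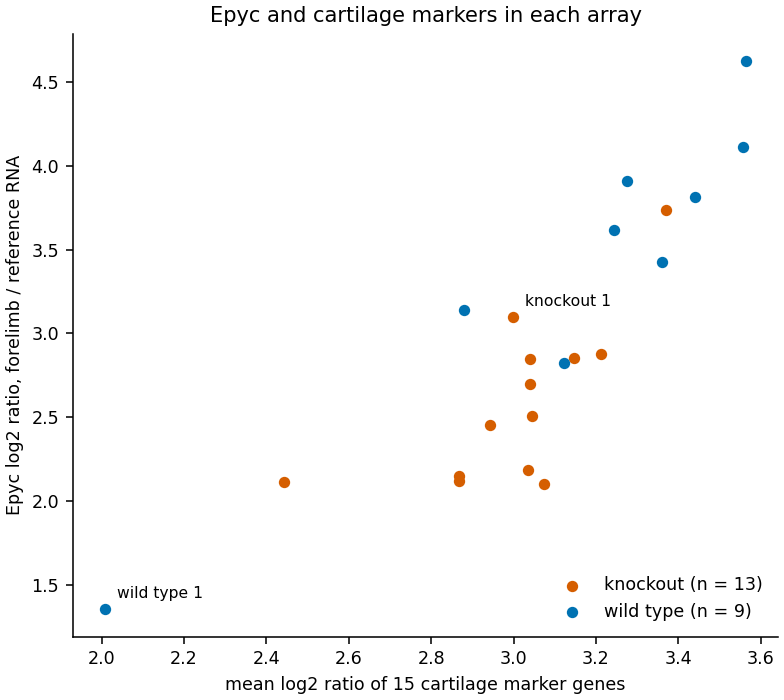
Log2 ratio of Epyc against the mean log2 ratio of 15 cartilage markers, 1 point an array, for knockout (orange, n = 13) and wild type (blue, n = 9). Wild type 1 lies at the lower left with a marker mean of 2.01 and an Epyc ratio of 1.35.

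Other leucine-rich relatives of the family centred near 0. Of 8 on the array, 7 were tested, with 2 differences below and 5 above 0, a median of 0.013 and none called. Podnl1, which encodes podocan-like 1, was -2.79 ± 0.12 in knockout and -2.51 ± 0.24 in wild-type forelimbs, a difference of -0.28 (95% interval -0.45 to -0.12) with unadjusted p = 0.0013 and adjusted p = 0.880 in limma. Chad (chondroadherin of cartilage) had 0.09, Nyx (nyctalopin) 0.04, Tsku (tsukushi) 0.03, Ecm2 0.01, Optc (opticin) 0.01 and Podn (podocan) -0.02. Nepn passed background on 0 of 22 arrays and was not tested.

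The enzymes that build the chains of these proteins gave no call in either list. Of 21 genes for linker, chondroitin and dermatan chains, 15 differences were below and 6 above 0, with a median of -0.035. Csgalnact1, which starts chondroitin chains, had -0.36 (unadjusted p = 0.008), and Dse, the epimerase that makes dermatan sulfate, had -0.17 (unadjusted p = 0.0331). Chpf, a partner in chain polymerisation, had -0.14, and Chst13, a chondroitin 4-sulfotransferase, had -0.13. Of 8 genes for keratan sulfate chains, 5 were below and 3 above 0, with a median of -0.053. B3gnt2 had -0.16 (unadjusted p = 0.0324) and B4galt4 -0.12 (unadjusted p = 0.0309), both of which extend lactosamine chains, while the sulfotransferase genes Chst1 and Chst4 had -0.15 and -0.06. For both lists the adjusted p of every gene was over 0.05.

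Of 14 genes for collagens, which several members bind, and the crosslinking enzyme Lox, 12 differences were below and 2 above 0, with a median of -0.10 and none called. Lox, which decorin and fibromodulin are known to meet at the fibril, had -0.23. The 3 collagen VI genes, whose product binds biglycan and decorin, had -0.10 for Col6a1, -0.11 for Col6a2 and -0.15 for Col6a3. Of 16 tested ligands, receptors and proteases, 12 were below and 4 above 0, with a median of -0.076 and none called. Tlr4, a receptor for soluble biglycan, had -0.29, Fbn1 (fibrillin 1) -0.16, Tgfb1 -0.12 and Lrp1, an endocytic receptor for decorin, -0.13.

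Markers of the cell types in a forelimb were measured beside the members, and none was called. Cartilage had 12 of 15 differences below 0 with a median of -0.10, which became 14 of 15 and -0.22 without wild type 1 and 11 of 15 and -0.059 without knockout 12. There Snorc had -0.51, Matn1 -0.42, Matn3 -0.40 and the transcription factor gene Sox5 0.34. Hypertrophic and bone markers had 8 of 8 tested below 0 with a median of -0.089, with Alpl at -0.44, Runx3 at -0.32, Spp1 at -0.22 and Ihh at -0.13, and 7 of 8 with a median of -0.17 without wild type 1. Their means ran from -1.37 to -1.06 in knockout and -1.24 to -0.84 in wild-type forelimbs, and Col10a1, Mmp13, Ibsp and Dmp1 were too dim to test. Tendon markers had 4 of 6 below 0 with a median of -0.21, with Thbs2 and Tnc at -0.24, Tnmd at -0.23 and Scx at 0.12. The tendon mean followed Dcn with r = 0.82, Epyc with r = 0.79, Kera with r = 0.78 and Aspn with r = 0.77, and it ran from 0.85 to 1.60 in knockout and 0.57 to 1.64 in wild-type forelimbs.

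Connective mesenchyme had 4 of 7 below 0, with Dpt at -0.45, Prrx2 at 0.30, Pdgfra at 0.21 and Osr2 at 0.16, and its median of -0.068 became -0.14 without wild type 1 and 0.015 without knockout 12, and its mean had r between -0.36 and 0.28 with the members. Muscle had 8 of 9 below 0 with a median of -0.16, led by Acta1 at -0.29, Mylpf at -0.21, Tnnt3 at -0.28 and Myh3 at -0.20. Endothelium had 6 of 6 below 0 with a median of -0.035, which was -0.22 without wild type 1 and 0.034, with 1 of 6 below 0, without knockout 12, and had Cldn5 at -0.10, Kdr at -0.09, Emcn at -0.04 and Tek at -0.03. Nerve had 1 of 7 below 0 with a median of 0.14, which became 3 of 7 and 0.05 without wild type 1, with Nefm at 0.46, Erbb3 at 0.15 and Tubb3 at -0.09. Nerve markers had the lowest correlation with Bgn, r = -0.71. That value includes wild type 1, which had the lowest nerve mean and the highest Bgn ratio of all arrays. Ectoderm had 5 of 6 below 0 with a median of -0.14, with Epcam at -0.13, Krt14 at -0.20, Krt5 at -0.17 and Krt15 at -0.14. Erythroid cells had 2 of 6 below 0, with Klf1 at 0.14, Epor at 0.09, Hbb-y at 0.29 and Alas2 at -0.12. Macrophages had 2 of 5 below 0, with Cd68 at -0.13, Csf1r at 0.09, Cx3cr1 at 0.16 and Fcgr1 at -0.08. The part of these cell types in the members' differences was not tested.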

How the data were processed

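Two-colour arrays of 13 knockout and 9 wild-type forelimbs were used, grouped by the sample labels. The submitters' processing notes name Agilent Feature Extraction 9.5 for the scans, and the file headers name 9.5.3.1. The deposited mean and background brightness values are raw intensities, per the file headers. The deposited ratio of each spot is log10 of processed Cy5 over processed Cy3, per the file headers, and the deposited value table, whose column medians are 0, holds the same log10 ratios (largest difference 0). The flags for signal above background, saturation and outliers are deposited as 0 or 1, per the file headers.

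From these, intensities were corrected with normexp (offset 50) and scaled within arrays by loess. Control and outlier spots had weight 0 and were then dropped. No non-control spot was saturated. Spots of a probe were averaged (41174 probes), and 27803 probes with Cy5 well above background on at least 9 arrays were kept. Names came from the RefSeq table of GRCm38.p6, by accession for 23374 probes and by another listed accession for 100, by current symbol for 6679 and by older symbol for 2892. The design's name was kept for 1829, and 6300 had none. The brightest probe on average stood for a gene, which left 18641 tests. The 22 arrays entered 1 limma fit (version 3.58.1, R 4.3.3) with no covariates, with Benjamini-Hochberg adjustment over all tested genes at 0.05. The fit was also run on simulated data with independent noise for each gene and array. That simulation held no shared array, slide or position effects. The number of arrays limits the precision.

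Named were all 10 members, the tested relatives, up to 4 genes with the smallest p in each other list, the 5 genes most like Epyc, and Chsy1. Tbx5 and Pitx1 were added for the tissue check. 1 gene that this rule names is not reported here. The members and lists were chosen with earlier results of these data known. Alternatives covered background, scaling, channel, filter, probes, blocks, array weights and each array left out. Deviations of same-numbered knockout and wild-type arrays had correlations of either sign, so the numbers were not taken as pairs. That check cannot exclude a pairing of samples.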

Additional observations from a re-analysis of the deposited data

Results flagged for a closer look

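Of 25 sets of 9 wild-type values examined (members and means of the marker and other gene lists), 4 held a value far from the others, against about 1 in 20 by chance. The sets come from the same 9 arrays, so the 4 are not separate events. All 4 were values of wild type 1. Its Omd ratio of -0.27 was the highest of the 9, where Cy5 signal for Omd did not pass background. Its mean of the cartilage markers, 2.01, was the lowest. Its mean of the endothelium markers, 1.83, was the lowest. Its mean of the nerve markers, 0.75, was the lowest. The knockout group, with 13 arrays, was not examined in this way; there knockout 12 was the lowest for endothelium at 2.12, with the next at 2.90, for cartilage at 2.44, with the next at 2.87, and for nerve at 1.41, with the next at 1.62.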

How the results depend on the processing

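The count of 4 called genes was 1 with the scanner log ratio, the value table, median centring, the slide, position or replicate block, position 2 without knockout 1, and, without wild type 1, the Cy5 channel alone, the scanner log ratio or the slide block. It was 7 with array weights, 2 without knockout 1 and wild type 1 together, 0 with position 2 alone, and 2 to 6 leaving out 1 array each, with 2 without wild type 2, 5 or 6. The count of called members was 0 in limma in all 43 alternatives, with 1 member at an unadjusted p under 0.05 in the fit reported. The Epyc difference kept its sign, from -1.09 without wild type 1 to -0.68 without wild type 4 among single omissions, was -0.75 with the replicate block, and over all alternatives ran from -1.39 with position 2 without knockout 1 to -0.65 with median centring. It was -1.26 with the scanner log ratio and the value table. Epyc minus the cartilage mean ranged from -0.79 to -0.57 with 1 array left out, and its exact permutation p was over 0.05 with position 2 alone.

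Other members changed sign. Median centring, under which the median of all genes was 0.24, gave 0.10 for Bgn, 0.10 for Dcn, 0.28 for Fmod and 0.056 for Ogn. Dcn was 0.097 with position 2 without knockout 1 and 0.18 at its other probe. Kera was -0.19 with the scanner log ratio and the value table, -0.081 with the position block and position 2 alone, -0.023 with array weights, -0.078 without knockout 1 and wild type 1, and, without wild type 1, -0.16 with the scanner log ratio and -0.19 with the slide block. Lum was -0.049 with the slide block without wild type 1. Prelp was -0.096 with the position block and position 2 alone, -0.0033 with the replicate block, -0.039 with array weights, -0.027 with position 2 without knockout 1, and, without wild type 1, -0.012 with the Cy5 channel alone and -0.057 with the slide block. Leaving out single arrays took Fmod from -0.066 to 0.031, Kera from -0.10 to 0.18, Lum from 0.010 to 0.16 and Prelp from -0.030 to 0.14. The cause of these changes was not tested. Same-numbered arrays had correlations of -0.31 to 0.49 over 9 pairs, 3 of them over 0.1. The numbers were thus not taken as pairs, although these values cannot exclude a pairing. Quantile scaling of intensities left ratios as they were by construction. Omd and the dim second probes of Bgn and Prelp are limited by signal over background.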
